A study of Mus musculus with 2 samples.

Results

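The microRNA (miRNA) genes Mir126a, Mir126b, Mir143, Mir145a and Mir145b were described in hippocampal tissue of aged male mice. They were taken by name, as genes of the endothelial Egfl7 locus and of the smooth muscle Mir143 and Mir145 group, and they are 5 of the 2202 miRNA genes annotated in GENCODE M21. The study holds 1 group of 2 microRNA-seq libraries from total RNA. The tissue, labelled as layer of hippocampus, came from males of the F1 hybrid strain B6CASTF1/J (C57BL/6 and CAST backgrounds, from The Jackson Laboratory) at 18 to 20 months of age. No treatment or engineered allele is named, and no age, sex or genotype was compared. Each library has its own biosample, and the labels call them replicates 1 and 2, but they give a single donor entry for both. Whether 2 mice were used is not stated, so every test below compares these 2 libraries, and a difference between them may be technical.

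A miRNA is cut from a hairpin in a longer primary transcript and, bound to an Argonaute protein, lowers the translation or stability of messenger RNAs that pair with its seed, bases 2 to 8 from its 5′ end. Mir126a lies in Egfl7, a gene of endothelial cells, the lining of blood vessels, and its product is known for its role in vessel growth and integrity. Mir143 and Mir145a are made as a cluster in smooth muscle cells and pericytes, the mural cells that wrap vessels, where they are known for supporting the contractile state. In brain tissue both cell classes belong to the microvasculature. In bulk tissue, fewer cells of a type and less RNA per cell cannot be told apart.

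The sequences of the chromosome 2 genes are shown because they lie on opposite strands of the same stretch of DNA, on which the counting of Mir126a turned. Of the 5 genes, 2 had entries in the RefSeq table (build GRCm38.p6, the C57BL/6J reference), with 3 mature sequences. In the mature sequences below, capitals mark the seed. No 2 of the 3 shared a seed, and no other of the 1679 mature sequences in the table had any of these seeds.
mmu-miR-126a-3p: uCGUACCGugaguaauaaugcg
mmu-miR-126b-5p: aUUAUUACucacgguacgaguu
mmu-miR-126b-3p: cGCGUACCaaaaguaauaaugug
In the hairpins, capitals mark the mature sequences listed above. The table held no entry for miR-126a-5p, from the other arm of the Mir126a hairpin, so it is neither marked nor compared.
Mir126a hairpin: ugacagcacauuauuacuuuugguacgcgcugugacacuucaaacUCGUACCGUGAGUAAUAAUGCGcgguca
Mir126b hairpin: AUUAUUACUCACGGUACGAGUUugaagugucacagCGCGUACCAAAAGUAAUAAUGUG
The Mir126b hairpin was the exact reverse complement of bases 7 to 64 of the Mir126a hairpin, counted from its 5′ end. The mature miR-126a-3p took up bases 46 to 67 of that hairpin, and the stretch opposite miR-126b-5p bases 43 to 64, so 19 bases of miR-126a-3p lay opposite miR-126b-5p.

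In the mm10 genome, Mir126a (ENSMUSG00000065540.1) lies on the plus strand of chromosome 2 from 26591357 to 26591429, inside Egfl7 (26580014 to 26593120, same strand). It was intronic in 8 of the 9 Egfl7 transcripts that span it and lay within exon 4 of the other, a retained-intron transcript. Mir126b (ENSMUSG00000105799.1) lies on the minus strand from 26591363 to 26591420, so all of its 58 bases fall within Mir126a. The other genes are on the minus strand of chromosome 18. Mir143 (ENSMUSG00000065445.3) spans 61649196 to 61649258 and Mir145a (ENSMUSG00000065592.2) 61647825 to 61647894, with 1301 bases between them. The annotation sources differ on their host: Carmn, a long non-coding RNA gene of smooth muscle also called Mir143hg, ends 366 bases before Mir143 in GENCODE M21 (61649625 to 61665537) but spans both genes in RefSeq (61645878 to 61665538). Mir145b (ENSMUSG00000098366.1, 69022199 to 69022273) lies 7.37 megabases away and is not part of the cluster.

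**Figure D1:**
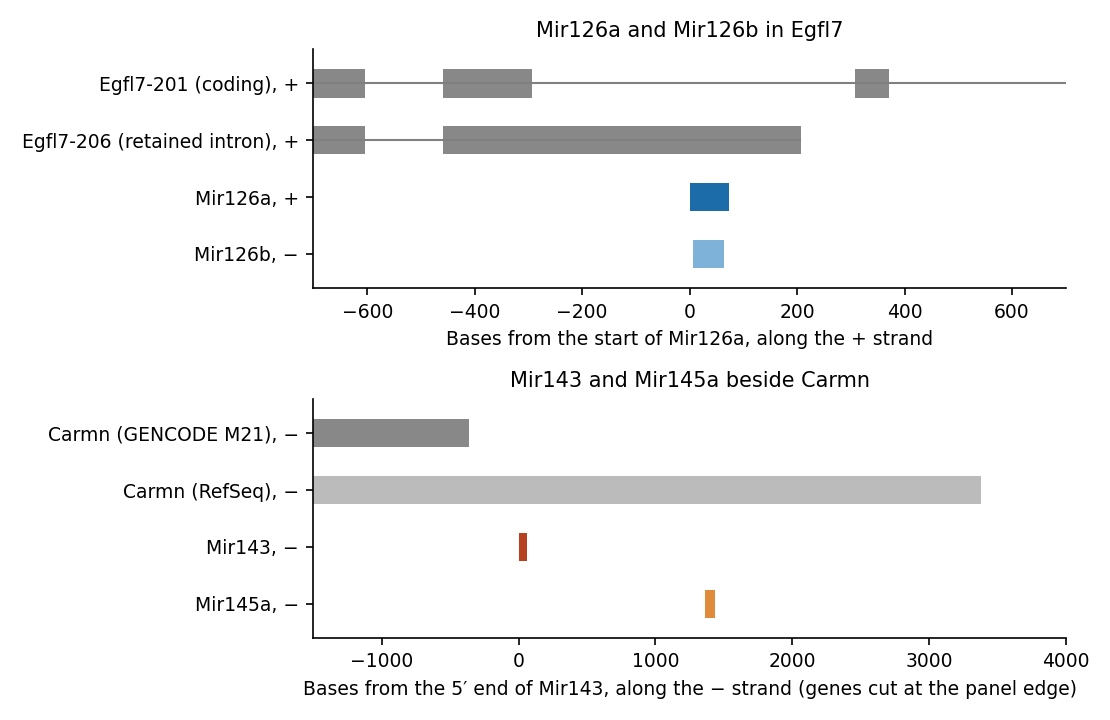
Maps of both loci, to scale, with boxes for genes or exons and thin lines for introns. The upper panel gives bases from the start of Mir126a and shows the 58 bases of Mir126b inside Mir126a. The lower panel gives bases from the 5′ end of Mir143 along its strand and shows Carmn ending 366 bases before Mir143 in one annotation and spanning Mir145a in the other.

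The 5 hairpins differed in length and predicted stability. They ran from 58 bases (Mir126b) to 75 (Mir145b), with a GC content from 39.7% (Mir126b) to 55.6% (Mir143). The predicted minimum free energy was -36.9 kcal/mol for Mir143, -31.2 for Mir126a, -30.3 for Mir145a, -25.1 for Mir145b and -19.3 for Mir126b. The longest run that a hairpin shared with another annotated miRNA gene was 17 bases, between Mir145a and Mir145b. It was 12 for Mir126b and 11 for both Mir126a and Mir143, and none of the 5 reached the 20 bases taken here as shared sequence.

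Replicate 1 had 10594081 reads, of which 3758318 matched a miRNA gene on its own strand, and replicate 2 had 16131923, of which 5598792 did. Reads that mapped to several places, 51.5% and 46.7% of the total, enter no gene. Detection was set at 10 counts in each library, which 384 genes reached. Of a list of 13 neuronal miRNA genes, chosen like the other lists with earlier results of these data known, 9 were detected. The list summed to 51169 and 52958 counts per 1000000 sense counts (CPM), led by Mir132, Mir128-1 and Mir137. The 3 copies of Mir124a, a defining neuronal miRNA, had 0 to 5 counts each, and all 3 share at least 20 bases with another hairpin.

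Mir126a, the endothelial gene, had the highest level of the 5. It had 44548 sense counts in replicate 1 and 60052 in replicate 2, that is 11853 and 10726 CPM. On this total-count scale the libraries differed by 1.11-fold, with a mean of 11290 ± 797 CPM (SD, n = 2), and the gene took rank 19 of all miRNA genes in each library as well as in their mean. It held 1.19% of the sense counts in replicate 1 (exact 95% interval 1.17 to 1.20%) and 1.07% in replicate 2 (1.06 to 1.08%). The intervals here and below describe counting error alone: without molecular identifiers, reads copied from 1 molecule cannot be told from separate molecules. The counts do not separate the arms of a hairpin. They also leave out reads that mapped to several places, so genes with several copies may stand too low in the ranks.

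In the order of levels, Mir126a stood below Mir137, a neuronal gene, and Mir23a, and above Mir125a and Mir221. Mir23a had 11450 ± 939 CPM and Mir137 12226 ± 884 CPM, and the ranges of both overlapped that of Mir126a. The range of Mir125a, 5924 and 16583 CPM, enclosed that of Mir126a. Mir221 stood apart, with 8046 and 9650 CPM, both below the lower value of Mir126a.

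Mir126b, the antisense gene, had no sense count in either library. With the limit for a count of 0 set at 3 counts, the highest level it could have had is 0.798 CPM (replicate 1) or 0.536 CPM (replicate 2). Against that limit in each library, Mir126a was at least 14849-fold and 20017-fold higher. The strand of the reads decided this assignment. In the opposite-strand column, Mir126b had 44546 counts in replicate 1 and 60051 in replicate 2, which is 2 and 1 fewer than the sense counts of Mir126a. In the column without strand, Mir126a kept 2 and 1 counts and Mir126b none, because a read that overlaps both genes is set aside as ambiguous. The reads at this locus made up 15.5% of all ambiguous reads in replicate 1 and 14.1% in replicate 2. Which stranded column is sense is not named in the labels. The choice rested on the larger total, and in the chosen column Mir143 and Mir145a had all their counts, with 0 on the opposite strand in both libraries.

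**Figure D2:**
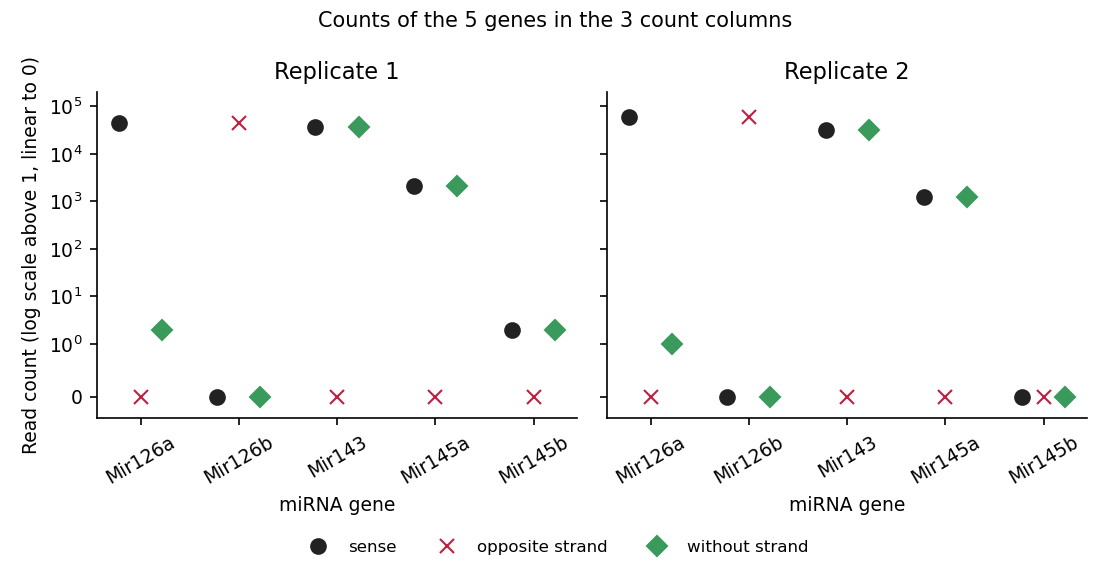
Read counts of the 5 genes in the 3 count columns, 1 panel per library. The vertical axis is logarithmic above 1 and linear from 1 to 0. Mir126a has 44548 and 60052 sense counts but 2 and 1 without strand, while Mir143 and Mir145a have the same counts in both of these columns.

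The annotation holds 32 pairs of miRNA genes that overlap on opposite strands. In 25 of them the higher gene was detected, and in 15 of those 25 the gene on the other strand had no count in either library, Mir126b among them. By the level of the higher gene, Mir126a and Mir126b were the third pair.

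Mir143, the leading mural gene, had 36157 sense counts in replicate 1 and 31140 in replicate 2, that is 9621 and 5562 CPM. Replicate 1 was the higher although it was the shallower library. The mean was 7591 ± 2870 CPM (SD, n = 2), and the gene held rank 20 in replicate 1, 37 in replicate 2 and 26 in the mean. Its neighbours in that order, Mir98 (7795 ± 874 CPM) and Mir411 (7757 ± 1328 CPM) above and Mir30e (7456 ± 1459 CPM) and Mir382 (7191 ± 510 CPM) below, all had ranges that overlapped its own.

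Mir145a, its partner in the cluster, had 2148 counts in replicate 1 and 1245 in replicate 2, that is 572 and 222 CPM. It was the gene with the widest relative spread of the 3 detected, with a mean of 397 ± 247 CPM (SD, n = 2) and ranks of 105, 160 and 129 in replicate 1, replicate 2 and the mean. The ranges of Mir31, Mir667, Mir218-2 and Mirlet7f-1, the genes next to it in the order, all overlapped its own. Both values of Mir145a lay below both values of Mir143 and of Mir126a.

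Mir145b had 2 counts in replicate 1, or 0.532 CPM (exact 95% interval 0.0644 to 1.92), and 0 in replicate 2, which allows up to 0.536 CPM. It was therefore not detected at this depth. Mir145a had 1074 times its counts in replicate 1 (interval 297 to 8874) and was at least 415-fold higher in replicate 2.

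**Figure D3:**
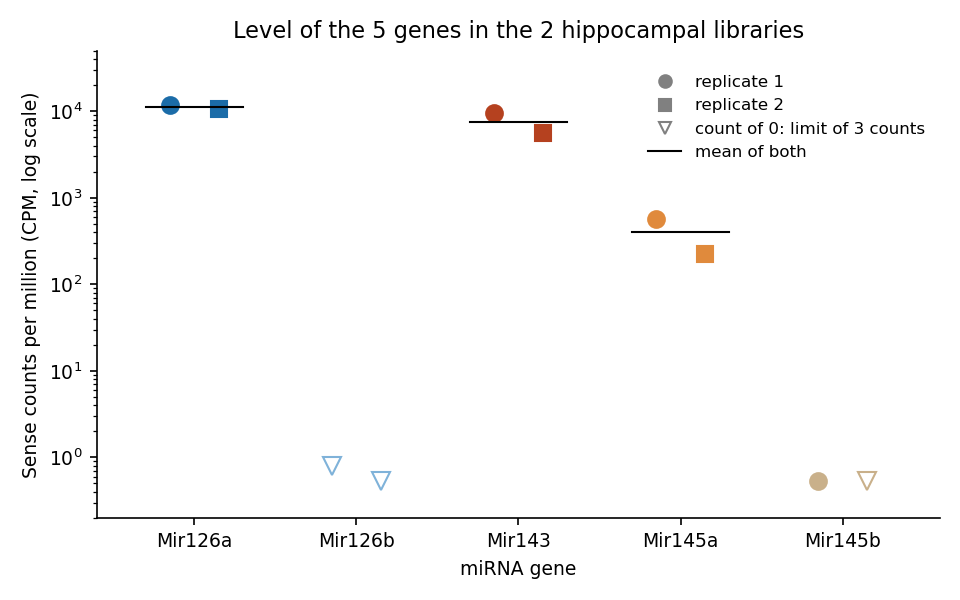
Sense CPM of each gene on a log axis, with a circle for replicate 1, a square for replicate 2 and a bar at the mean of detected genes. Open triangles stand at the limit of 3 counts where the count was 0. Mir126a has 11853 and 10726 CPM, Mir143 and Mir145a are higher in replicate 1, and Mir126b and Mir145b are at or below 1 CPM.

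Together the 5 genes had 22046 CPM in replicate 1 and 16510 in replicate 2 (19278 ± 3914). Mir126a made up 53.8% and 65.0% of that sum, Mir143 43.6% and 33.7%, and Mir145a 2.59% and 1.35%. The endothelial gene thus held the larger part in both libraries.

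Ratios between genes within a library need no scaling between libraries. Mir143 had 16.8 times the counts of Mir145a in replicate 1 (exact 95% interval 16.1 to 17.6) and 25.0 times in replicate 2 (23.6 to 26.5). The intervals did not overlap, and the ratio was 1.49 times higher in replicate 2 (Fisher's exact test, two-sided, adjusted p = 4.06e-28 over the 3 gene pairs compared). Mir126a had 1.23 times the counts of Mir143 in replicate 1 (1.22 to 1.25) and 1.93 times in replicate 2 (1.90 to 1.96), with an adjusted p below 1e-300 in the same exact test. Mir126a had 20.7 times the counts of Mir145a in replicate 1 (19.9 to 21.7) and 48.2 times in replicate 2 (45.6 to 51.1; adjusted p = 1.18e-125, exact test). These tests compare the 2 libraries on counting error, not conditions. The order Mir126a, Mir143, Mir145a was the same in both.

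Other neighbouring miRNA genes also had unequal levels. There were 107 pairs of detected neighbours on the same strand with at most 10000 bases between them. The higher gene of a pair had a median of 5.42 times the mean CPM of the lower, with quartiles of 2.09 and 30.1. Mir143 and Mir145a, at 19.1-fold, were the pair with the 35th largest ratio, and 67.3% of pairs had a smaller one. Many pairs lie in the imprinted cluster on chromosome 12, and among the 59 pairs on other chromosomes theirs was the 19th largest, beside a median of 4.34-fold. Some pairs hold a gene that shares sequence with another hairpin, and reads that map to several places are not counted for it. With only genes sharing under 20 bases kept, there were 71 pairs, with a median of 5.98-fold and quartiles of 2.80 and 19.5. Mir143 and Mir145a were then the pair with the 20th largest ratio, near the upper quartile. The pairs share libraries, and many share a gene, so this is a description.

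**Figure D4:**
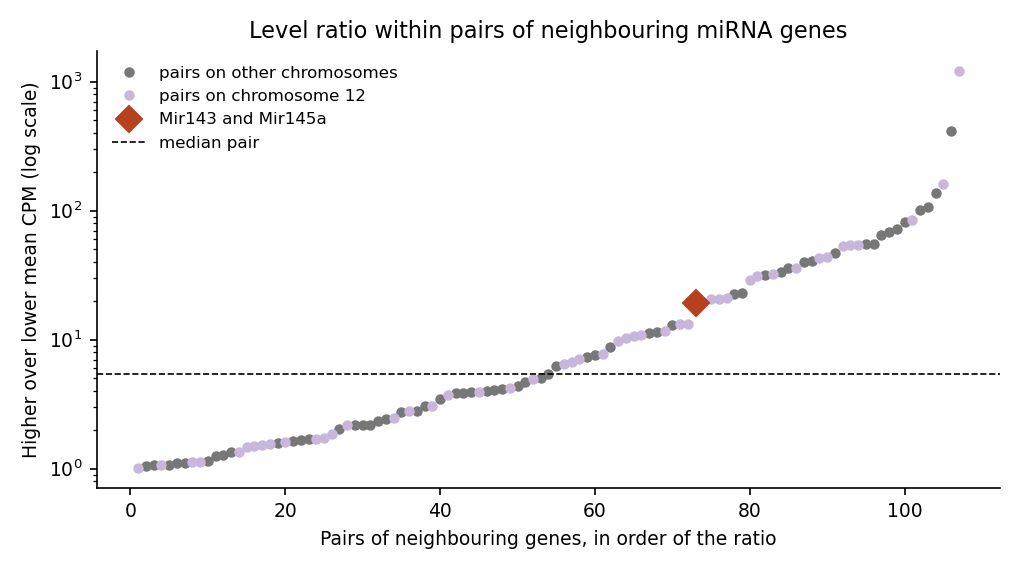
Ratio of the higher to the lower mean CPM, on a log axis, for 107 pairs of neighbouring detected miRNA genes in order of the ratio. Pale points are pairs on chromosome 12, and the dashed line is the median pair at 5.42-fold. Mir143 and Mir145a, at 19.1-fold, lie between the median and the upper quartile of 30.1-fold. With only genes sharing under 20 bases with another hairpin kept, the upper quartile was 19.5-fold.

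All 3 detected genes were higher in replicate 1 when the libraries were scaled with TMM (trimmed mean of M values, which sets the bulk of genes equal). Mir126a was 1.38-fold, Mir143 2.15-fold and Mir145a 3.20-fold higher, that is 0.46, 1.11 and 1.68 on the log2 scale. In an exact two-sided binomial test on counting error, with Benjamini-Hochberg adjustment over the 384 detected genes, the adjusted p was below 1e-300 for Mir126a and Mir143 and 1.07e-244 for Mir145a. That test called 65.1% of detected genes, 34.1% as higher in replicate 1 and 31.0% as higher in replicate 2, so such calls were common among detected genes. By size, the ratio of Mir145a was the 9th largest toward replicate 1 among the 384 genes, that of Mir143 the 25th and that of Mir126a the 91st. The median detected gene had a log2 ratio of 0.01.

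Counting error leaves out the variation between samples, which 1 difference between 2 libraries cannot measure apart from the difference itself. A common biological coefficient of variation of 34.4% was estimated from that same difference over the 384 detected genes. With it, edgeR's exact test gave an adjusted p of 1 for Mir126a, 1 for Mir143 and 0.753 for Mir145a (unadjusted 0.518, 0.124 and 0.0219). It called 2 of the 384 genes (0.521%), and 18 had an unadjusted p below 0.05. The 2 called, Mir26a-1 and Mir26a-2, were named after their values were seen. Both share at least 20 bases with another hairpin, so reads that map to several places are not counted for them. Since the differences under test set the dispersion, few calls are possible by construction. The differences of the 3 genes were thus larger than counting error, and whether they are larger than the variation between samples cannot be told from these libraries.

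Scaling by total sense counts, which is the CPM scale, moved the median log2 ratio of detected genes from 0.01 to -0.31 and the share of calls that were higher in replicate 1 from 52.4% to 28.0% (76 of 271). On that scale Mir126a, Mir143 and Mir145a were still higher in replicate 1, by 0.14, 0.79 and 1.36 on the log2 scale. The binomial test called all 3 there too, beside 70.6% of the detected genes in either direction.

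**Figure D5:**
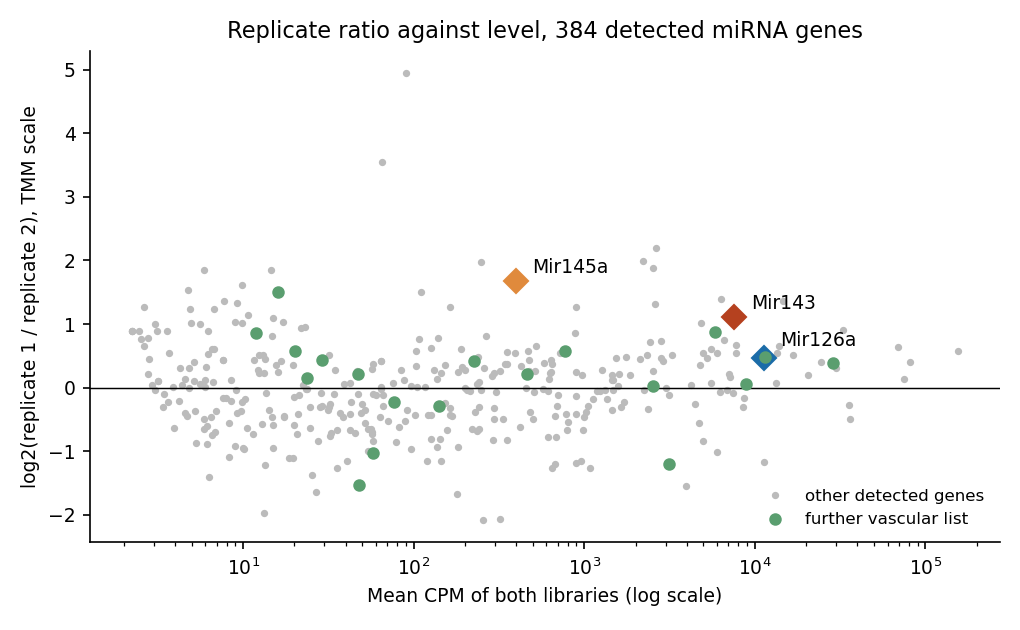
The log2 ratio of replicate 1 to replicate 2 on the TMM scale against the mean CPM (log axis) of 384 detected genes. Diamonds are the 3 detected genes described here, at 0.46, 1.11 and 1.68, and green points are the further vascular list. Grey points, the other detected genes, spread to both sides of 0.

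The genes (of 242 with at least 100 counts in each library) with the replicate ratio nearest to each were named as a description over 2 libraries, in which many genes have like ratios. Nearest to Mir126a were Mir708, Mir676 and Mir30d, each within 0.01 of its log2 ratio. Mir379 (log2 ratio 1.02), Mir1839 (1.27) and Mir677 (0.95) were nearest to Mir143, and Mir16-2 (1.50), Mir376a (1.87) and Mir99b (1.40) to Mir145a. Mir145a was not among the 3 nearest to Mir143, nor Mir143 among the 3 nearest to Mir145a.

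Further miRNA genes linked to vessels were listed as a wider setting: the mir-23, mir-27 and mir-24 genes, Mir221 and Mir222, Mir10a, Mir10b, Mir100, Mir155, the hypoxia gene Mir210, Mir296, Mir322, Mir503 and members of the mir-17 cluster. Many of them are also made by other cells of the brain. Of the 22 names listed, 21 matched a symbol of the annotation, and 19 of these were detected. The 21 matched genes summed to 62452 CPM in replicate 1 and 62762 in replicate 2. On the TMM scale 11 were called higher in replicate 1, 4 higher in replicate 2 and 4 neither way, while total-count scaling gave 5, 8 and 6. Over all 384 detected genes these counts were 131, 119 and 134 on the TMM scale and 76, 195 and 113 on total-count scaling, that is 19.8% called higher in replicate 1 and 50.8% in replicate 2 on the latter. The 19 detected list genes had a median log2 ratio of 0.21 on the TMM scale, against 0.01 for all detected genes. On total-count scaling these medians were -0.11 and -0.31. Mir23b led the list at 28859 ± 937 CPM, followed by Mir23a (11450 ± 939 CPM) and Mir221 (8848 ± 1134 CPM), and the first 2 share at least 20 bases with another hairpin. The listed name Mir92a-1 matched no symbol, but the annotation holds a gene Mir92-1, 163 bases from Mir20a. Mir92-1 had 712 and 1641 counts and was called higher in replicate 2 on the TMM scale (log2 ratio -0.31). It is left out of the counts and sums of the list.

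Lists of miRNA genes named for other cells that carry or adjoin vessels did not all move with the 3 genes. Bulk counts do not show which cells made a listed gene, and a few abundant genes carry most of some sums. The sums here and in the next paragraph therefore do not measure the content of those cells. The red cell list (3 of 3 annotated genes detected), a sign of blood in the tissue, summed to 63.3 CPM in replicate 1 and 95.7 in replicate 2. On the TMM scale 1 of its genes was called higher in replicate 2 and on total-count scaling 2 were, beside 31.0% and 50.8% of all detected genes. With 3 genes, such calls cannot be told from those shares. None of the red cell genes was called higher in replicate 1, and the defining gene Mir451a had 39.6 and 63.4 CPM. Mir486, also in the list, shares at least 20 bases with another hairpin, and reads that map to several places are not counted for it. The platelet and leukocyte list (6 of 8 detected) summed to 3748 and 3446 CPM, with Mir342 (2224 and 2018 CPM), Mir150 (659 and 637 CPM) and Mir146 (665 and 615 CPM) in the lead. On the TMM scale 4 of its genes were called higher in replicate 1 and none higher in replicate 2, and on total-count scaling 3 were, again with none higher in replicate 2. Of all detected genes 34.1% and 19.8% were called higher in replicate 1 on these scales. Its part in the ratios of Mir126a, Mir143 and Mir145a was not tested. Mir223, of platelets and myeloid cells, had 12.0 and 11.1 CPM. The same limit holds for Mir146, which also shares at least 20 bases with another hairpin and may stand too low.

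The list for striated muscle (2 of 10 detected) summed to 70.0 and 94.8 CPM. Its defining genes Mir1a-1, Mir1a-2, Mir133a-1 and Mir133a-2 were at 0 in both libraries, but each shares at least 20 bases with another hairpin, so reads that map to several copies would not be counted for them. Mir206, which led the list, had 52.2 and 79.7 CPM and Mir499 12.2 and 6.07 CPM. The list for fibroblasts and other mesenchyme (5 of 8 detected) summed to 10310 and 11485 CPM and went both ways. Mir21a (3475 and 1735 CPM) and Mir140 (3367 and 1051 CPM) were called higher in replicate 1, and Mir22 (3446 and 8643 CPM), Mir152 and Mir214 higher in replicate 2, on the TMM and the total-count scale alike. Among all detected genes, calls went toward replicate 1 for 34.1% and toward replicate 2 for 31.0% on the TMM scale. On total-count scaling the shares were 19.8% and 50.8%. With 5 genes, a split both ways cannot be set apart from those shares. Mir199a-1 and Mir199a-2 were at 0 in both libraries and Mir199b had 4 and 3 counts, and these 3 share at least 20 bases with another hairpin. The choroid plexus list (7 of 11 detected), a tissue rich in vessels next to the hippocampus, summed to 2122 CPM in replicate 1 and 3174 in replicate 2. On the TMM scale 5 of the 7 were called higher in replicate 2, and on total-count scaling all 7 were, beside 31.0% and 50.8% of all detected genes. None was called higher in replicate 1 on either scale, beside 34.1% and 19.8%. It was led by Mir34c (1165 and 1491 CPM), Mir204 (759 and 1038 CPM) and Mir1298 (80.9 and 428 CPM). Of the 7, Mir1264, Mir1298 and Mir448 lie near each other on chromosome X, between 147010601 and 147158321. Mir34c and Mir34b lie 451 bases apart. The calls in this list are thus not separate observations, and whether they differ from the shares over all detected genes was not tested. The parts of these cells in the levels of Mir126a, Mir143 and Mir145a were not tested.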

How the data were processed

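The authors deposited unnormalized read counts for each miRNA gene in 3 strand settings, on mm10 with GENCODE M21 per the labels. The aligner and counting tool were not given in the sources used here. The 4 summary lines (64.5% and 65.3% of reads in replicates 1 and 2) stayed out of library sizes and tests. GENCODE M21 named all 2202 identifiers. CPM divide a sense count by the sum of sense counts of all miRNA genes, times 1000000. Genes with 10 or more counts in both libraries (384) were compared with an exact binomial test (SciPy 1.17.1), with TMM from edgeR 4.0.16 and Benjamini-Hochberg adjustment at 0.05. With 1 group there was no contrast for a quasi-likelihood fit. Intervals are exact (Clopper-Pearson, 95%), and a count of 0 was given a limit of 3 counts by convention. Folding energies are from RNAfold 2.7.2. The libraries differed beyond sampling noise (chi-square 243102, 383 degrees of freedom). That cannot tell 2 mice from 2 preparations of the same tissue, and the libraries were counted as 2 samples by their labels. The binomial test and the exact intervals were tried on counts simulated with counting error only, without variation between samples.

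Named genes were the 5 members, the 2 genes above and 2 below each in level, the 3 of nearest replicate ratio, the 3 highest of each list, and genes that overlap a member or share its hairpin or seed. Other genes named with values are markers that define a list. The members and lists were chosen with earlier results of these data known. Of the listed names, Mir92a-1, Mir486b and Mir146a matched no symbol. Alternatives were other count columns, denominators, scalings (DESeq2 1.42.0 size factors), detection limits, tests and distances, and each library left out.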

Additional observations from a re-analysis of the deposited data

How the results depend on the processing

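The summed level of the 5 genes (19278 CPM) was 8649 CPM with counts without strand, which set aside the reads of Mir126a, 148013 CPM with opposite-strand counts, which give those reads to Mir126b, and 6775 per 1000000 of all reads. It ran from 16510 to 22046 with either library left out and was 19699 with the TMM library size. The ratio of Mir143 to Mir145a (geometric mean 20.5) ran from 16.8 to 25.0 with a library left out and was the same without strand. The ratio of Mir126a to Mir143 (1.54) ran from 1.23 to 1.93 and reversed to 4.21e-05 without strand, since Mir126a then kept 2 and 1 counts. The share of pairs of neighbouring genes with a smaller ratio than Mir143 and Mir145a (67.3%) was 66.4% or 72.9% with a library left out and 65.8% to 71.8% under the other distances and the limit on shared sequence.

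The binomial test called 250 genes, and 221 to 271 under the alternatives except edgeR's exact test with the common dispersion, which called 2 with a dispersion set by the differences it tests. The 3 detected genes stayed higher in replicate 1 and called under the alternatives other than that test, save that Mir126a was not testable without strand. That test has no value with a library left out, so none was run. No paired analysis was possible because there is 1 group. With 2 libraries, an SD or a ratio rests on 1 difference, and Mir126b and Mir145b were below what this depth detects.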
